A study of Saccharomyces cerevisiae with 76 samples.

Results

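Summits of Abf1 binding that fell inside nuclear tRNA genes of Saccharomyces cerevisiae were examined. A summit is the base of highest fragment coverage of a peak. The peak list holds 948 summits, and a summit was a member when its position lay between the first and the last base of a nuclear tRNA gene in the sacCer3 annotation. This gave 231 summits in 231 of the 275 tRNA genes, with never more than 1 summit in a gene, and left 717 summits outside tRNA genes. The tRNA genes cover 0.182% of the nuclear genome and held 24.4% of the summits. Beyond the peak call itself, the choice used positions alone and no level of enrichment.

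Abf1 is an essential general regulatory factor that binds a bipartite DNA motif, mostly in promoters transcribed by RNA polymerase II, where it keeps DNA free of nucleosomes. A tRNA gene is transcribed by RNA polymerase III from a promoter inside the gene. The A box, near the start, and the B box, towards the end, are bound together by the factor TFIIIC, which places TFIIIB just upstream of the gene, and TFIIIB recruits the polymerase. tRNA genes are short, strongly transcribed and largely free of nucleosomes, and some hold a short intron beside the anticodon. Budding yeast carries many identical copies of most of them.

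The list was called by the authors on 3 chromatin immunoprecipitation (IP) samples of Abf1 together, against their 3 input samples. The cells were haploid BY4742 (MATalpha) with the genotype tor1-1, fpr1del and RPL13A-FKBP12, which the anchor-away method needs, and Abf1 carried an FRB-yEGFP-3V5 tag that an anti-V5 antibody precipitates. All 6 samples were at 0 min, without rapamycin and with 90 min in the solvent DMSO, and came from independent colonies. The series lists 76 samples in all, and its later time points and its untagged strain were not analysed here. Each summit has 1 pooled value, so no spread between replicates can be given and no test between groups was made. The intervals given below are 95% intervals that cover counting error only: exact binomial for shares, order statistics for medians and Poisson for the coverage of 1 summit.

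The signal was the fold enrichment, the number of fragments over the summit divided by the background estimated from the input, each with 1 added. Members held 296 to 1393 fragments at the summit, with a median of 430 (interval 417 to 437), against 258 to 10164 and a median of 663 at the summits outside tRNA genes. The backgrounds were alike, with medians of 142.5 fragments for members and 140.2 for the others. The total number of fragments per sample was not used here.

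The sequences below show what the members share. They are the genes of 7 tRNA families, from RefSeq's R64 assembly (sacCer3), read 5′ to 3′ on the coding strand, with the A box and the B box in capitals. A family is named by its amino acid and anticodon. Thr-AGU, Lys-CUU and Tyr-GUA hold identical copies with very unlike signals, Gly-UCC was among the high families and Ile-AAU among the low ones, Asp-GUC had the most genes without a summit, and the initiator methionine gene (iMet) has another B box.
Thr-AGU, YNCH0003C, chrVIII:116107-116179, minus strand: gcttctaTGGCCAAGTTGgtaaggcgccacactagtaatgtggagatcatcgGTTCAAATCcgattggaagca
Lys-CUU, YNCI0007C, chrIX:300228-300300, minus strand: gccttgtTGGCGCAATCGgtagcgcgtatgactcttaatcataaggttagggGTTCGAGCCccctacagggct
Tyr-GUA, SUP6, chrVI:210619-210707, minus strand: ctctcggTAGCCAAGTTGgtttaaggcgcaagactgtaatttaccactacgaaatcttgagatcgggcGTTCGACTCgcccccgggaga
Gly-UCC, SUF4, chrVII:779616-779687, plus strand: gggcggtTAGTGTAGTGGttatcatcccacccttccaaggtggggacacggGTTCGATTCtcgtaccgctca
Ile-AAU, YNCP0020W, chrXVI:819529-819602, plus strand: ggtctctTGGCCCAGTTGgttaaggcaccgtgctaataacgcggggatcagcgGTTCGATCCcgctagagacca
Asp-GUC, YNCG0023C, chrVII:544577-544648, minus strand: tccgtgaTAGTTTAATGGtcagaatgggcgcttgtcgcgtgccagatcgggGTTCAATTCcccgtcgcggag
iMet-CAU, IMT4, chrV:100133-100204, plus strand: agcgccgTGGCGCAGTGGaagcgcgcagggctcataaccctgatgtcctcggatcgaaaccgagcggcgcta

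These internal promoter elements were found in almost all tRNA genes, whether or not they held a summit. The A box pattern matched 274 of the 275 genes, each time from base 8 of the gene, against 6.05% of all windows of 73 bp in the genome, the median length of a tRNA gene without an intron. The B box letters GTTCGANNC matched 200 genes (72.7%) and 0.463% of such windows, and the looser letters GTTCNANNC matched 270 genes (98.2%) and 2.72% of windows, on either strand. The 5 initiator methionine genes, whose T loop differs from that of other tRNAs, had no match to either, and 3 of them held a summit (IMT4 at 4.69-fold, IMT2 at 4.31-fold and IMT1 at 3.03-fold).

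The summits in tRNA genes were weak and alike. Their fold enrichment ran from 2.03 to 9.79, with a median of 2.95 (interval 2.89 to 3.06) and quartiles of 2.70 and 3.36. At the 717 summits outside tRNA genes it ran from 2.00 to 68.2, with a median of 4.74 (interval 4.24 to 5.36) and quartiles of 2.65 and 15.3. Most members lay close together, and 163 of the 231 members (70.6%) lay between 2.5-fold and 3.5-fold, against 147 of the 717 others (20.5%). No member exceeded 10-fold, a level passed by 231 of the other summits, and 235 summits of the list ranked above the strongest member. The strongest summit of the list, at 68.2-fold, lay 19 bp outside a tRNA gene and so was not a member. Peak intervals were shorter in tRNA genes, with a median of 326 bp against 654 bp, and 216 of the 231 members were the sole summit of their interval.

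A fold enrichment of at least 4 was required of peaks in the off-rate analysis of the study, but was not enough for entry. Peaks were filtered further by their Abf1 motifs, and those in telomeric regions were excluded. The study's methods name weak signal over tRNA genes as a known artefact of ChIP. Over the whole list 44.4% of summits reached the line of 4-fold. It was reached by 20 of the 231 members, 8.66% (interval 5.37 to 13.1), against 401 of the 717 other summits, 55.9% (interval 52.2 to 59.6). On either side of the line lay YNCG0040C (Leu-CAA) at 3.98-fold and YNCD0021C (Glu-CUC) at 4.10-fold, whose counting intervals overlap. Whether the untagged strain gives the same signal in tRNA genes was not tested.

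**Figure D1:**
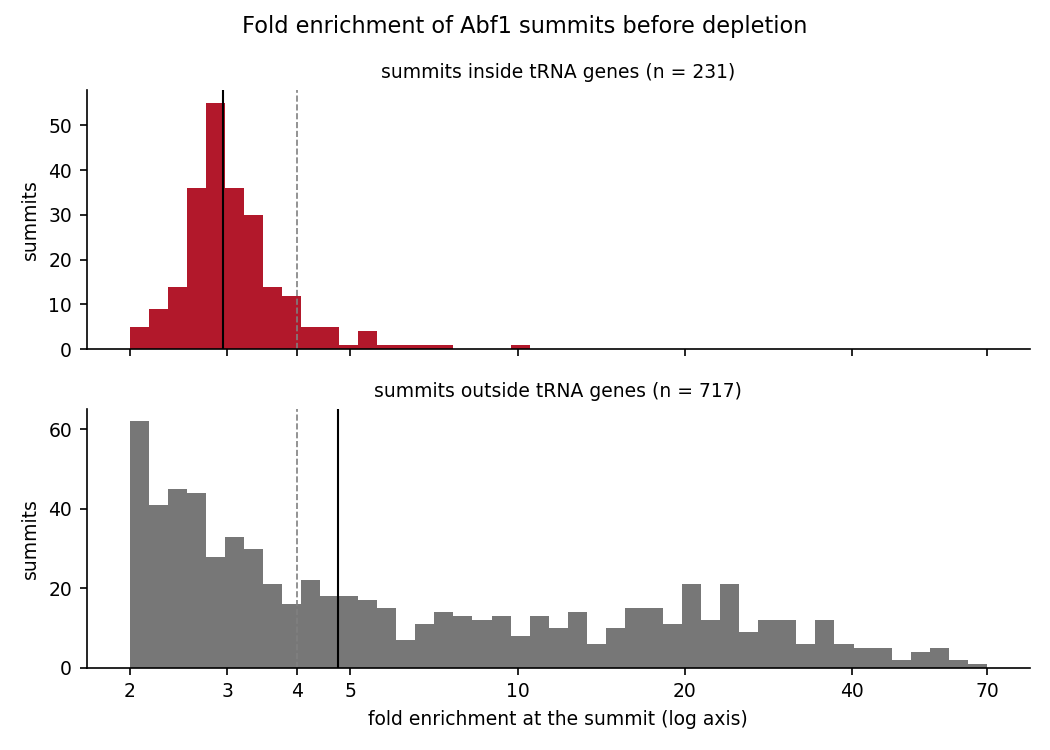
Number of summits by fold enrichment (log axis) for the 231 summits inside tRNA genes (top) and the 717 summits outside them (bottom). Solid lines mark the medians, 2.95 and 4.74, and the dashed line marks 4-fold. The members form a single narrow group and the other summits spread up to 68.2.

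By feature class, tRNA genes were the class most often hit: 231 of 275 genes, or 84% (interval 79.1 to 88.1), held a summit. Among protein-coding genes 124 of 6002, or 2.07% (interval 1.72 to 2.46), held one between start and stop codon. Members were not taken out of the latter count, and 5 tRNA genes with a summit overlap a protein-coding gene. The RNA polymerase III genes that are not tRNA genes were hit in 3 of 10 cases. SCR1, the RNA of the signal recognition particle, had a summit inside the gene at 4.53-fold, SNR6, the U6 spliceosomal RNA, at 2.71-fold, and RPR1, the RNA of ribonuclease P, at 2.25-fold. The nearest summit to SNR52, a small nucleolar RNA, lay 69 bp outside the gene at 3.00-fold. The 6 genes of 5S rRNA (RDN5-1 to RDN5-6) are transcribed by RNA polymerase III through TFIIIA and lie in or beside the rDNA repeats. They had no summit, and the nearest were 9811 to 22859 bp away. Only uniquely mapping reads were kept, so reads from repeated copies can be lost. The uniqueness of these 6 genes was not measured, so a lack of signal there cannot be told apart from lost reads.

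Every amino acid and every anticodon was represented. The 275 genes fall into 42 families for 20 amino acids, counting initiator and elongator methionine separately, and each family had at least 1 gene with a summit. In 23 families, with 103 genes together, every gene had a summit. They include Thr-AGU (11 of 11), Ser-AGA (11 of 11), Pro-UGG (10 of 10), Phe-GAA (10 of 10), Gln-UUG (9 of 9) and Tyr-GUA (8 of 8). The other 19 families lacked a summit in at least 1 gene. Asp-GUC stood lowest among the larger families, with a summit in 7 of 16 genes, followed by Ile-AAU with 8 of 13 and Lys-CUU and Glu-UUC with 10 of 14 each. Among families of 2 to 5 genes, Ile-UAU had 1 of 2, Ser-GCU 2 of 4 and initiator methionine 3 of 5.

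The spread of signal within families was close to the spread over all members. A spread between families was not computed. Across all members the SD of log2 fold enrichment was 0.32, and within the 35 families with at least 2 summits the pooled SD was 0.30. Family medians ran from 2.54 in Cys-GCA (3 summits, 2.21 to 2.88) to 5.32 in Leu-GAG, which is 1 gene. Ile-AAU was low throughout, with 8 summits between 2.13 and 2.88 and a median of 2.58. Gly-UCC was high throughout, with SUF4 at 4.29-fold, SUF6 at 3.92-fold and SUF1 at 3.87-fold. All 3 are glycine tRNA genes known from frameshift suppressors, and their lowest value was above the highest Ile-AAU value. Asp-GUC, although it lacked a summit in 9 genes, was not low where it had one, with 7 summits between 2.71 and 3.19 and a median of 2.90.

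**Figure D2:**
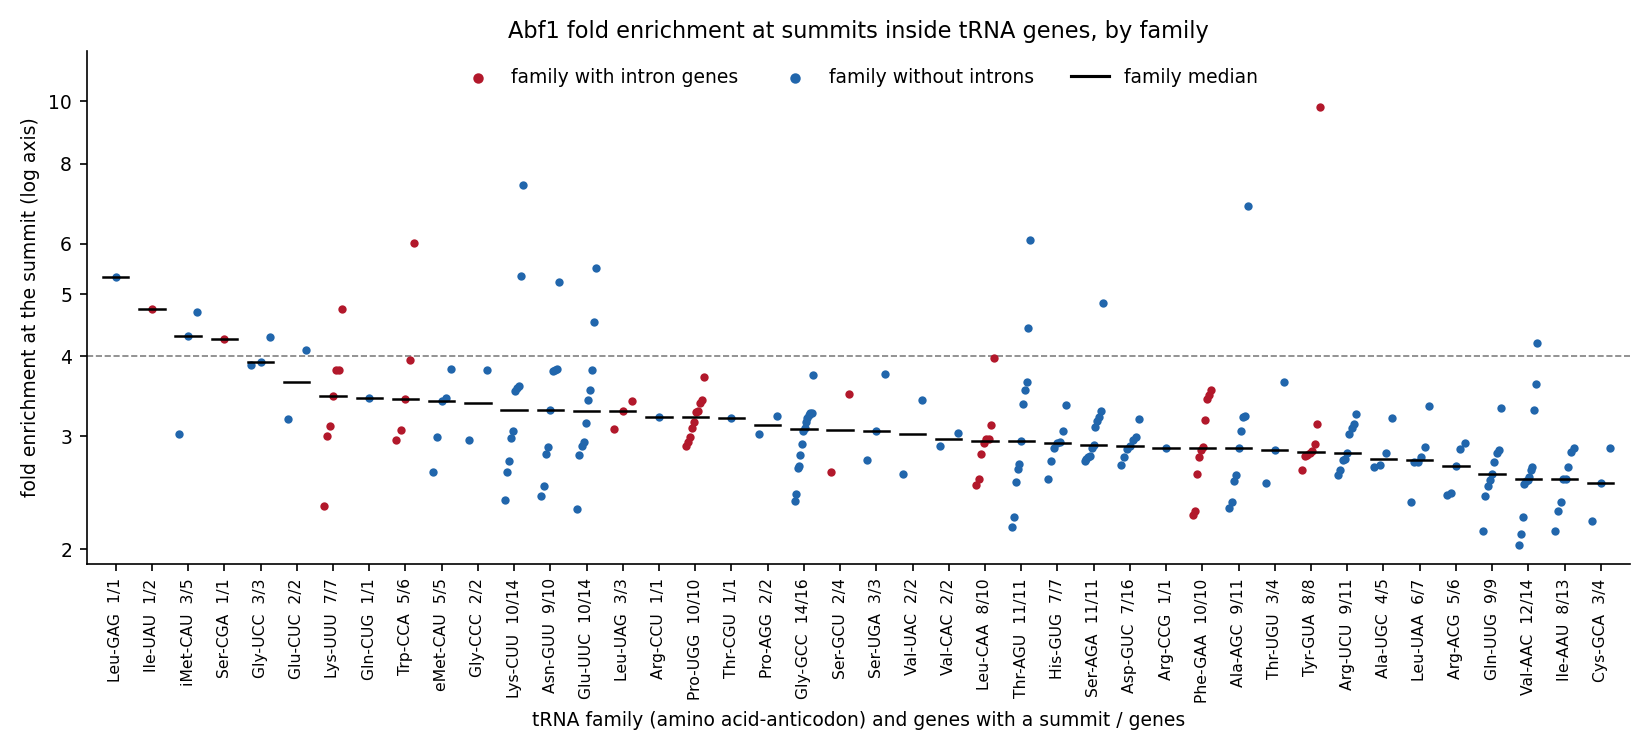
Fold enrichment (log axis) of each of the 231 summits, 1 point a gene, in the 42 tRNA families ordered by their median (black bars). Labels give genes with a summit out of all genes, red marks families with intron-containing genes, and the dashed line is 4-fold. Most families overlap between 2.5 and 3.5, and single genes such as SUP6 (9.79) stand far above their family.

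For 6 anticodons there is a single gene in the genome, so that its reads cannot come from another copy, and all 6 held a summit. Leu-GAG (YNCG0028W) was highest at 5.32-fold (interval 4.95 to 5.71). SUP61, the sole and essential Ser-CGA gene, stood at 4.26 (3.94 to 4.60). CDC65, the sole Gln-CUG gene, stood at 3.45, HSX1 (Arg-CCU) at 3.22, TRT2 (Thr-CGU) at 3.21 and TRR4 (Arg-CCG) at 2.88. The 2 above 4-fold also had a summit outside tRNA genes within 1000 bp, of 25.7-fold at 778 bp from Leu-GAG and 3.58-fold at 921 bp from SUP61, while TRR4 had one of 2.04-fold at 362 bp.

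The first 12 and last 6 bases of the 75-base reads were trimmed by the authors and uniquely mapping reads were kept, so sequence shared by copies limits where reads can be placed. Of the 231 members, 201 lie in genes in which every stretch of 57 bases, the length of a trimmed read, also occurs elsewhere in the genome. With 200 bp of flank on each side, a median of 93.0% of such stretches were unique for genes with a summit and 88.5% for genes without one. All 21 genes whose stretches were all unique held a summit, with a median of 3.17. Of the 12 genes with some unique stretches 9 did, with a median of 2.93, against 201 of the 242 genes with none unique, also with a median of 2.93. The part of read placement in the level and in the position of the summit inside repeated genes was not tested.

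Identical gene sequence did not go with an identical signal. In 28 sets of at least 3 genes with the same sequence, intron included, and a summit each (185 genes), the highest copy exceeded the lowest by a median of 1.43-fold (interval 1.30 to 2.03), with a range of 1.02 to 3.68. In 22 sets the counting intervals of the highest and the lowest copy did not overlap. These intervals allow neither for picking the extremes of a set, which lie farther apart in larger sets, nor for spread between replicates. The spread was widest in 5 identical Tyr-GUA genes, where SUP6, known from an ochre suppressor, had 1393 fragments and 9.79-fold (9.29 to 10.3), and SUP7 had 359 fragments and 2.66-fold (2.39 to 2.95). The 3 others of that set, SUP8, SUP11 and SUP5, stood at 3.14, 2.92 and 2.79. SUP6 was thus alone in standing high among Tyr-GUA genes, and a second set of 3 Tyr-GUA genes, SUP3, SUP4 and SUP2, lay within 2.81 to 2.85.

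The next widest ranges were in Lys-CUU, Ala-AGC and Thr-AGU. Among 10 Lys-CUU copies, YNCI0007C stood at 7.41-fold (6.96 to 7.88) and YNCM0025C at 2.39 (2.14 to 2.66). Among 9 Ala-AGC copies, YNCP0022W stood at 6.88 (6.43 to 7.35), YNCF0011C at 2.32 and the second highest, YNCL0035C, at 3.23. Among 11 Thr-AGU copies, YNCH0003C stood at 6.07 (5.71 to 6.44) and YNCO0013C at 2.16 (1.93 to 2.42). In each of these sets 1 or 2 copies stood far above the rest. The largest set, 14 summits in Gly-GCC genes, held no such copy and ran from 2.38 in SUF16 to 3.74 in YNCF0008C, a range of 1.57-fold.

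**Figure D3:**
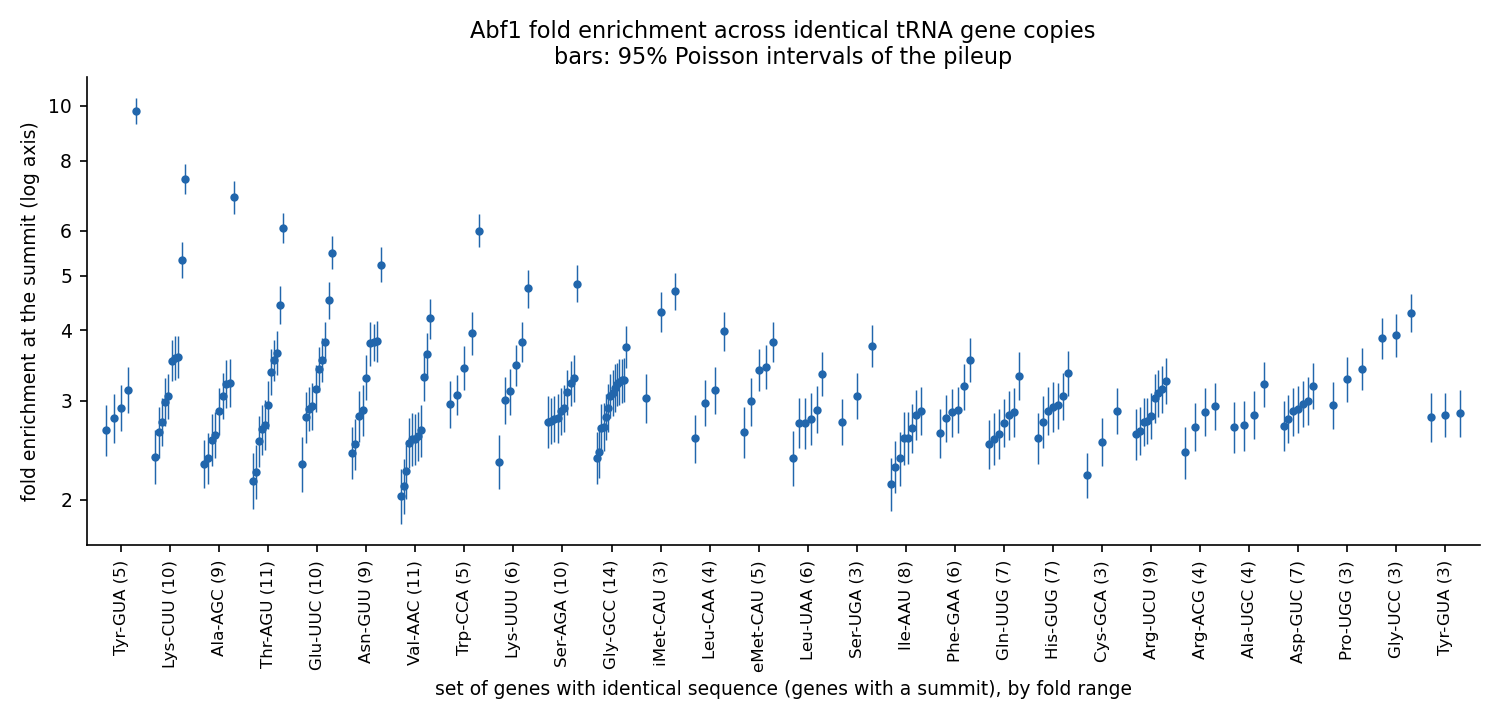
Fold enrichment (log axis) of tRNA genes with identical sequence, 1 point a gene, in 28 sets ordered by fold range, with 95% Poisson intervals of the fragments at the summit. Single copies of Tyr-GUA (9.79), Lys-CUU (7.41), Ala-AGC (6.88) and Thr-AGU (6.07) are the highest of their sets, and YNCG0007C (Lys-CUU, 5.33) and YNCD0005C (Thr-AGU, 4.43) are the others of these 4 sets above 4-fold.

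An exact Abf1 motif was seldom near these summits. Members were chosen for a summit inside the gene, so a summit at a motif beside a gene was not among them. Of 13 summits outside a tRNA gene but within 50 bp of one, 5 had an exact match within 100 bp. The part of this choice in the shares below was not tested. An exact match to the Abf1 consensus, searched on both strands, lay with its midpoint within 100 bp of 10 of the 231 members, 4.33% (interval 2.1 to 7.8), while 2.81% of all genome positions have one that near. Within 50 bp no member had one, against 1.43% of genome positions, and a count of 0 of 231 allows a share of up to 1.30%. Of the other 717 summits, 548 had an exact match within 100 bp, 76.4% (interval 73.1 to 79.5). The shares also differed at like enrichment. Between 2.5-fold and 3.5-fold, a band chosen after the values were seen, 5 of 163 members (3.07%) had a match, against 106 of 147 other summits (72.1%). With 1 mismatch allowed, 88 members (38.1%) had a match within 100 bp, against 639 other summits (89.1%) and 42.2% of genome positions. Of the 20 members at 4-fold or more, 5 had an exact match within 100 bp.

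The 10 members with an exact match are shown with the matched 13 bases in capitals and 4 bases on each side, in the orientation of the consensus, from R64.
YNCI0007C (Lys-CUU), chrIX:300175-300195: ttaaATCATTAGAGACGgaaa
YNCH0003C (Thr-AGU), chrVIII:116067-116087: ggtgATCATCAGCTACGaatt
YNCM0022C (Trp-CCA), chrXIII:379255-379275: gctgGTCATTGTCGACGataa
YNCG0007C (Lys-CUU), chrVII:185852-185872: tcaaATCATTATCTACGctag
YNCG0037W (Val-AAC), chrVII:823427-823447: atagGTCACATGAAACGacga
YNCL0035C (Ala-AGC), chrXII:657056-657076: aataATCATCCTAAACGttct
YNCB0006W (Ser-AGA), chrII:227057-227077: tgatATCATGTAAAACGaggc
YNCE0012W (Glu-UUC), chrV:177044-177064: tatcATCATGGTAGACGatat
YNCC0010C (Gln-UUG), chrIII:168424-168444: atacGTCATCCTAAACGttca
YNCH0015W (Thr-UGU), chrVIII:466920-466940: atacGTCATCCCAAACGttca

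All 10 matches lay outside the gene, 52 to 91 bp from the summit, 7 upstream of the gene and 3 downstream, and 2 of them, at YNCL0035C and YNCH0015W, lay in an annotated long terminal repeat (LTR) of a transposon. The 10 members had a median of 3.71-fold (interval 2.57 to 6.07) against 2.94 (2.88 to 3.03) for the 221 without a match, a difference of 0.77 whose combined interval of -0.46 to 3.19 includes 0. The difference was 0.14 with at most 1 mismatch allowed and 0.28 with a match within 200 bp. The 10 split evenly: the first 5 in the order printed stood at 7.41, 6.07, 6.01, 5.33 and 4.20, and the other 5 at 3.23, 3.22, 2.90, 2.57 and 2.54. The 3 members with a match downstream of the gene were all among the 5 high ones. In these 3 the summit lay in the later part of the gene, at base 44 of 73 in YNCI0007C, 51 of 73 in YNCH0003C and 76 of 106 in YNCM0022C. Of the 7 with a match upstream, 4 had the summit in the 5′ part of the gene, a side that held 149 of all 231 members.

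The base 8 positions before the motif's middle, which the study's methods name as deciding whether Abf1 is cross-linked efficiently, was A or T in all 10. A count of 0 with G or C allows a share of up to 30% here. Of the matches at other summits, 314 of 548 (57.3%) had A or T there, of those at other summits under 4-fold 148 of 182 (81.3%), and of all 1785 exact matches in the genome 68.2%.

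Members near a summit outside tRNA genes had the higher median. Of the 231 members, 16 had one within 1000 bp, and their median was 4.28-fold (interval 2.90 to 4.74) against 2.93 (2.87 to 3.03) for the other 215. Both the ranges and the intervals of the medians overlapped. Of these 16, 9 reached 4-fold. They were SUP6, 442 bp from a summit of 21.4-fold, YNCJ0002C (Glu-UUC, 5.49), 581 bp from one of 38.4-fold, Leu-GAG (YNCG0028W), YNCK0021W (Lys-UUU, 4.74), 614 bp from one of 11.1-fold, IMT4, YNCL0044W (Glu-UUC, 4.52), IMT2, 704 bp from one of 8.50-fold, SUF4, 368 bp from one of 9.43-fold, and SUP61. The neighbour was the weaker summit of the pair at IMT4 (2.41-fold, 369 bp), YNCL0044W (2.92-fold, 426 bp) and SUP61. The other 7 were under 4-fold, and 2 of them had a strong neighbour: YNCJ0018W (Lys-CUU, 3.53) lay 899 bp from a summit of 39.5-fold and YNCL0009C (Gln-UUG, 2.51) 907 bp from one of 10.8-fold. For the remaining 5, SUF1 (3.87), YNCO0018W (Asn-GUU, 3.81), YNCL0040W (Asp-GUC, 2.90), TRR4 (2.88) and YNCE0005W (Ser-AGA, 2.79), the neighbour stood at 2.04-fold to 2.26-fold. The 3 members closest to another summit were TRR4, SUF4 and IMT4, at 362, 368 and 369 bp. All of the 16 but SUP61, YNCJ0018W and YNCL0009C shared their peak interval with another summit, so these pairs need not be separate peaks.

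No member had both an exact motif within 100 bp and such a neighbour, so the features marked 26 members, and 14 of these reached 4-fold (53.8%), against 6 of the 205 members with neither (2.93%). These 6 were YNCP0022W (Ala-AGC) at 6.88, YNCK0003W (Asn-GUU) at 5.23, YNCJ0023C (Ser-AGA) at 4.84, YNCD0017W (Ile-UAU) at 4.74, YNCD0005C (Thr-AGU) at 4.43 and YNCD0021C (Glu-CUC) at 4.10. YNCK0003W lay just past the distance limit, 1003 bp from a summit of 45.0-fold, and YNCD0005C lay 2647 bp from one of 40.7-fold. For YNCP0022W and YNCD0017W the nearest summit outside tRNA genes was 9637 and 9575 bp away. Across the 231 members, Spearman's rho of fold enrichment with the distance to the nearest such summit was -0.33, with GC content around the summit 0.14, with unique sequence 0.02 and with gene length 0.07. All points come from 1 pooled measurement.

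**Figure D4:**
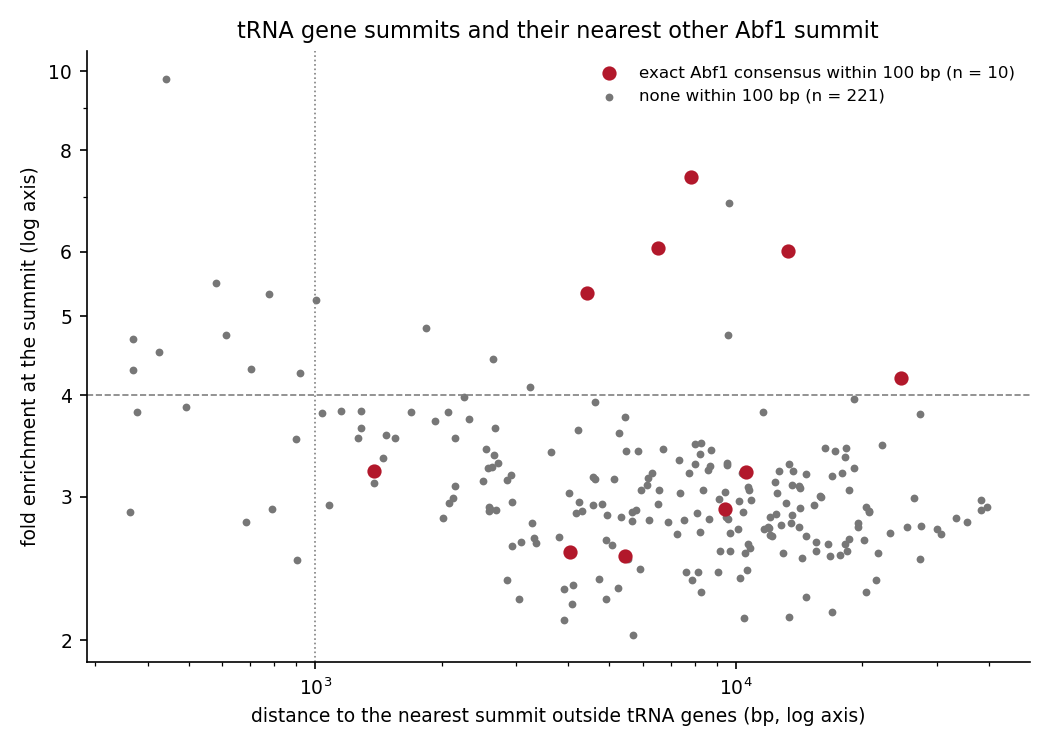
Fold enrichment of the 231 tRNA gene summits (log axis) against the distance to the nearest summit outside tRNA genes (bp, log axis). Red points have an exact Abf1 consensus within 100 bp (10 members), the dashed line is 4-fold and the dotted line 1000 bp. Of the 20 points above 4-fold, 9 lie left of the dotted line and 5 are red.

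At the low end, the 5 weakest members were YNCK0014W (Val-AAC) at 2.03-fold with 310 fragments, YNCJ0015W (Val-AAC) at 2.11, YNCN0012C (Ile-AAU) at 2.13, YNCB0013W (Gln-UUG) at 2.14 and YNCO0013C (Thr-AGU) at 2.16. None had an exact motif within 100 bp, and each was alone in an interval of 237 to 276 bp. They stood just above the peak caller's minimum of 2-fold, so genes slightly weaker would not be listed.

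Summits lay in the middle of the gene, between the promoter elements. In the 55 members with an intron the median position was base 47 (interval 43 to 53, range 20 to 87), at 47.4% of the gene's length. In the 176 members without an intron it was base 32 (interval 30 to 34, range 7 to 71), at 43.2% of the length. The summit was 5′ of the gene's midpoint in 149 members and 3′ of it in 82. In genes with an intron the summit lay in the intron in 45 cases, in the 5′ exon in 6 and in the 3′ exon in 4.

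Relative to the B box (GTTCGANNC, 172 members) the summit lay a median of 24 bases upstream of its first base, a value of -24 (interval -27 to -22). Between the end of the A box and the start of the B box lay 140 of these 172 (81.4%), while 17 lay at or before the A box and 15 at or after the B box. Members were chosen for a summit inside the gene, and the stretch between the boxes is a large part of it. The share that this choice alone would give was not computed. With an intron the summit was at -32 (38 members, interval -37 to -28), and without one at -21 (134 members, interval -24 to -18). The B box itself began at base 76 with an intron and base 53 without, in the median. Farthest from the median position were YNCB0015W (Arg-UCU) and SOE1 (Glu-UUC), both at 19 bases past the B box start and 1 base from the end of the gene, and YNCJ0011W (Arg-UCU) at 15 bases past it.

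**Figure D5:**
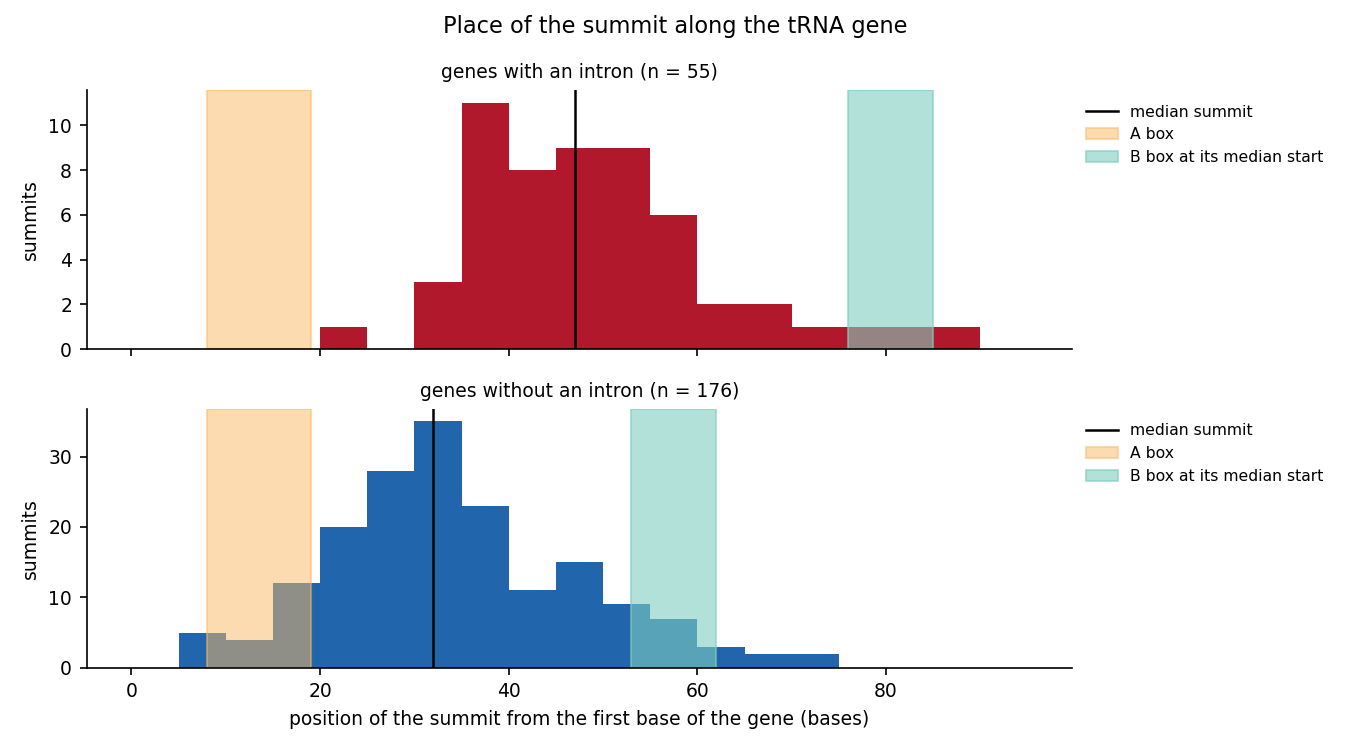
Number of summits by position from the first base of the tRNA gene, for the 55 members with an intron (top) and the 176 without (bottom). Black lines are median summits (47 and 32), orange bands the A box and green bands the B box at its median start (76 and 53). In both groups most summits lie between the boxes.

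The intervals of the median levels overlapped between the strands, and between genes with and without an intron. A summit was found in 122 of 143 plus-strand genes and 109 of 132 minus-strand genes, with median fold enrichments of 2.97 (interval 2.90 to 3.06) and 2.91 (2.83 to 3.15), a difference of 0.06. Genes with an intron held a summit in 55 of 60 cases, 91.7% (interval 81.6 to 97.2), and genes without in 176 of 215, 81.9% (76.0 to 86.8). Their medians were 3.09 (2.94 to 3.29) with an intron and 2.90 (2.85 to 3.03) without, a difference of 0.19 whose combined interval of -0.09 to 0.43 includes 0. The families with introns are Ile-UAU, Leu-CAA, Leu-UAG, Lys-UUU, Phe-GAA, Pro-UGG, Ser-CGA, Ser-GCU, Trp-CCA and Tyr-GUA.

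Around protein-coding genes (ORFs), median levels were alike in each arrangement. High values were most frequent between divergent ORFs, though the intervals of the 3 shares overlapped. The nearest ORF was a median of 270 bp from genes with a summit and 326 bp from genes without. By the strands of the ORFs on the left and right, the medians were 2.95 between divergent ORFs (76 members), 2.94 between tandem ORFs (112) and 2.99 between convergent ORFs (43). At 4-fold or more stood 13 of the 76 divergent members, 17.1% (interval 9.43 to 27.5), 5 of the 112 tandem members, 4.46% (1.47 to 10.1), and 2 of the 43 convergent members, 4.65% (0.57 to 15.8). Divergent members also had a summit outside tRNA genes within 1000 bp in 8 cases, tandem ones in 6 and convergent ones in 2. Divergent cases include SUP6, between CDC14, a phosphatase of mitotic exit, and PTR3, a part of the amino acid sensor, and IMT2, between PEX25, a peroxisomal protein, and CAR1, arginase. An LTR lay within 300 bp of 56.3% of genes with a summit and 63.6% of those without, and the medians with and without one were 2.98 and 2.94.

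The 44 tRNA genes without a summit were of 2 kinds. In 22 a peak interval overlapped the gene but its summit lay outside, and in the other 22 no interval touched the gene. Among the first kind, 17 genes had a summit within 50 bp. Of these, 2 were beside a summit in another tRNA gene, and for the rest 13 summits lay just outside, 10 downstream and 3 upstream of the nearest tRNA gene.

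Of these 13 summits 7 reached 4-fold, and their median was 4.73. All but 3 lay within the members' range. Of the 7, 5 had an exact consensus within 100 bp. The strongest summit of the whole list, 68.2-fold with 10164 fragments, lay 19 bp past SUP54 (Leu-CAA). One of 39.5-fold lay 27 bp past YNCJ0019C (Trp-CCA), one of 35.7-fold 13 bp past YNCK0018C (Asp-GUC), one of 7.19-fold 7 bp past YNCE0028C (Arg-ACG) and one of 5.04-fold 32 bp past YNCG0033W (Ile-AAU). The other 2, without a motif match, were at 6.91-fold, 11 bp before YNCO0008W (Ser-GCU), and 4.73-fold, 2 bp past YNCD0020W (Gly-GCC). The 6 under 4-fold ran from 2.93 to 3.91, none with an exact motif, and lay 1 to 29 bp outside their genes: YNCJ0013C (Asp-GUC), YNCD0011W (Arg-UCU), YNCB0004W (Ile-AAU), YNCG0016C (Glu-UUC), YNCK0019W (Ala-AGC) and YNCK0005C (Glu-UUC). In 5 further genes an interval reached the gene from a summit 59 to 165 bp away, of 3.55-fold to 46.7-fold. Among them is YNCL0033C, the Ile-UAU gene without a summit, 138 bp from one of 18.0-fold.

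Several Asp-GUC genes without a summit lay in pairs with another tRNA gene. In 4 loci an Arg-UCU gene is followed by an Asp-GUC gene on the same strand after a spacer of 10 bases, and each locus had 1 summit for the pair. It lay at base 71 of 72 of the Arg-UCU gene YNCB0015W (2.66-fold), at base 67 of YNCJ0011W (3.25-fold), and in the spacer at the other 2 loci (2.94 and 3.01), never in the Asp-GUC gene. The pair on chromosome IV (YNCD0011W and YNCD0012W, chrIV:568882-569035) is shown with the spacer in capitals, where the summit of 2.94-fold sat at base 2.
YNCD0011W and YNCD0012W: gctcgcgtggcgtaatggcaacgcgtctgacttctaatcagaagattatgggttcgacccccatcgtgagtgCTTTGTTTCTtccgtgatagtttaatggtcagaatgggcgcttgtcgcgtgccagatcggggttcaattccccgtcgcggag
These loci hold 4 of the 9 Asp-GUC genes without a summit, a 5th (YNCK0018C) is beside the summit of 35.7-fold, and the other 4 had no interval.

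The 22 genes that no interval touched lay 980 to 36391 bp from the nearest summit, with a median of 7757 bp. They were spread over families: 4 Asp-GUC, 3 Ile-AAU, 2 each of Glu-UUC, Lys-CUU, Val-AAC and initiator methionine (IMT3 and YNCC0008W), and 1 each of Ala-AGC, Ala-UGC, Asn-GUU, Cys-GCA, Leu-CAA (SUP53), Leu-UAA and Thr-UGU. Of them, 1 had an intron, 16 had an LTR within 300 bp, and a median of 93.1% of the 57-base stretches in and around them were unique, close to the genes with a summit. Of the 22, 20 have the same sequence as a gene with a summit, and the exceptions are YNCM0010W (Glu-UUC) and YNCN0008C (Asp-GUC). A gene under the peak caller's minimum cannot be told apart from one without signal. Genes were taken from the reference genome, and whether each of them is present in the BY4742 cells used was not examined. By chromosome, every tRNA gene had a summit on I (4), VI (10), VIII (11) and XVI (17), and the smallest share was on III (6 of 10).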

How the data were processed

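ChIP-seq of Abf1 at 0 min (3 IP and 3 input samples of the 76 in the series) gave the peak list that was used. Per the labels and methods, the authors' alignment to sacCer3 was made with HISAT2 2.0.5, reporting at most 1 place per read. Fragments were counted once per molecular identifier, and only those mapping to 1 place were retained. MACS2 2.1.1.20160309 then called peaks on the pooled samples (q-value 0.001, fold enrichment 2). The deposited fold enrichment is a ratio of summit coverage to input background. The deposited −log10 p-value is from the peak caller's Poisson test. The deposited score, derived from the q-value, was not used. The summits file held the same positions.

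Fragments at the summit and background were solved from fold enrichment and p-value, and came within 0.01 of a whole number for all 231 members. tRNA genes, introns, ORFs and LTRs came from RefSeq's R64 annotation, which is sacCer3. Anticodons were derived from the gene sequences and equalled all 34 given in the annotation. Genes named are those of 4-fold or more, the 5 lowest, extremes of identical sets and of position, single-gene families, genes without a summit, summits within 50 bp of a gene and other RNA polymerase III genes. Members, lists and rules were chosen with earlier results of these data known. The functions were tested on simulated data. No test between groups was made, since replicates were pooled. Intervals have a confidence of 95%, and a count of 0 was given a limit of 3 counts. Alternatives covered the assignment to genes, the fold enrichment line, the motif and the B box letters. Scripts ran under Python 3.11.15 with scipy 1.17.1, pandas 2.3.3 and numpy 2.4.6, and figures were drawn with matplotlib 3.10.9.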

Additional observations from a re-analysis of the deposited data

How the results depend on the processing

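Of 31 alternatives to 9 results, 25 stayed within 1.5 times a count or inside the interval of a share, median or difference. None changed the sign of a difference between groups of members. The number of tRNA genes with a summit ran from 207 (2.5-fold or more) to 253 (any overlap of the interval). The share of members at 4-fold or more depended on the line, at 45.9% with a line of 3 and 3.90% with a line of 5. The summit lay at -21 from the B box start when genes with an intron were left out. The share with an Abf1 motif was 38.1% with at most 1 mismatch, 0% within 50 bp and 8.23% within 200 bp. The shares of genome positions were 42.2%, 1.43% and 5.48% in that order. With 1 mismatch and within 50 bp the members thus lay below the genome share. Within 200 bp they lay above it, as in the main setting (4.33% against 2.81%). The difference between members with and without a motif, 0.77, was 0.14 with at most 1 mismatch and 0.28 within 200 bp, and had no value within 50 bp, where no member had a motif. No paired analysis was possible because peak calling used all replicates as 1 pool, and for the same reason no replicate could be left out. Depth limits the list at its lower end: genes under 2-fold were not listed.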

Other observations

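Summits also fell in other short RNA genes. Of 76 small nucleolar RNA genes, which guide modification of rRNA, 9 (11.8%) held a summit, at 2.08-fold to 2.81-fold with a median of 2.57. Of the 6 annotated spliceosomal snRNA genes, 4 held one: LSR1, SNR6, SNR7-L and SNR7-S, with SNR6 highest at 2.71. SNR7-L and SNR7-S hold the same summit, so the 4 genes do not stand for 4 separate summits. The median of the 4 genes, 2.11, counts the shared summit for both. None of the 12 annotated rRNA genes held one. Only uniquely mapping reads were kept and the uniqueness of these genes was not measured, so no share is inferred from that count. The summits inside protein-coding genes had a median of 3.16 and reached 42.5-fold. Members were not taken out of this group, and 5 tRNA genes with a summit overlap a protein-coding gene.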
